A study of Caenorhabditis elegans with 4 samples.

Results

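The X chromosome carried 606 of the 3378 peaks in the combined list of binding sites of FKH-2, a forkhead transcription factor, in L3 larvae of Caenorhabditis elegans. These 606 peaks were all entries of that list whose chromosome field reads X, and the other 2772 lay on the autosomes I to V. The assay was ChIP-seq, in which sequencing follows chromatin immunoprecipitation: it reads the DNA that is crosslinked to a tagged protein and recovered with an antibody. The animals were hermaphrodites of strain OP185. They carried the mutation unc-119(ed3) and the transgene wgIs185, which holds fkh-2 with a C-terminal TY1 EGFP FLAG tag and a copy of unc-119. Both ChIP samples and both input samples shared this genotype, and the transgene had entered the strain by bombardment. Larvae were grown at 20 °C on HB101 bacteria, crosslinked in 2% formaldehyde, and their chromatin was precipitated with antibodies to GFP. The 4 samples were 2 ChIP replicates and 2 inputs. The peak lists cover whole larvae, so the cells in which a site was bound are unknown. No sample of an untagged strain was analysed here, and the depth of the samples is unknown.

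Forkhead proteins bind DNA through a winged-helix domain and act as activators or repressors of nearby genes. In the worm, FKH-2 is known for a role in the cilia of olfactory neurons. The X chromosome of hermaphrodites is present as a pair and is bound along its length by the dosage compensation complex, which lowers its transcription. It is poor in genes of the germline and rich in genes used in somatic tissues. The fkh-2 gene itself is on X, per the RefSeq gene table of WBcel235. The deposited lists use WormBase WS220 coordinates, a different assembly, so peaks are given by WS220 position only and were not assigned to genes or sequences.

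X peaks stood apart from the pooled autosomal peaks mostly in width and in how often peaks of both replicates overlapped them. Overlap by both means that each replicate had a peak touching the combined peak, not that the replicate peaks overlapped each other. Against the pooled autosomes, X peaks were wider, were overlapped by both replicates more often, and were less often in the middle of the chromosome. Chromosome I exceeded X in median width (250.5 against 178.5 bp) and in overlap by both replicates (68.9% against 50.0%). Of the shares tested, only the central one on X lay outside the range of the single autosomes. The q values of X peaks, the false discovery estimates that the authors gave each peak, were not shown to differ by the median split. The main tests below are 10 two-sided Fisher exact tests of X against the pooled autosomes, adjusted together by the Benjamini-Hochberg method. Alternative settings used the same test, and their p-values were adjusted separately for each setting. The tests count peaks as if independent. Neighbouring peaks of one list are not independent replicates, so each p covers counting error only. Intervals are 95% intervals of a share (Clopper-Pearson) or of a difference of shares (Newcombe), and they cover counting error only.

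X had 34.2 combined peaks per Mb over 17.7 Mb, against 33.6 per Mb over the autosomes together. In this list chromosome I was sparse, with 8.76 per Mb. II to V had 36.1 to 43.8 per Mb, each denser than X. The lists of replicates 1 and 2 held 30000 and 20799 peaks in all. On X they held 5523 and 3963, or 312 and 224 per Mb, against 296 and 204 per Mb on the autosomes. Chromosome I was not sparse in them, with 307 and 206 per Mb. Combined peaks overlapped 3.23% and 3.48% of its replicate peaks. On the other chromosomes these shares were 9.07% to 11.8% and 9.57% to 11.2%. Because chromosome I had few combined peaks, it gives few of the pooled autosomal peaks, but it stands apart in most shares, so values for I or for II to V are given beside several of the pooled ones.

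Along X, combined peaks were found from X:293240-293623 to X:17670226-17670478. The bases before the first of these peaks held 20 replicate 1 and 10 replicate 2 peaks, and those after the last held 11 and 5. In 20 equal bins of the chromosome, combined peaks numbered 17 to 44 per bin with a median of 30. The lowest bin was the leftmost, X:1-885355, and it was also the lowest in both replicates, with 198 replicate 1 and 129 replicate 2 peaks. The highest bin was X:15936408-16821763, with 44 combined peaks, 289 replicate 1 peaks and 200 replicate 2 peaks. The replicate counts there were near the median bin (279 and 202), so the high bin was seen in the combined list alone. The spread over bins was wider in the combined list (coefficient of variation 21.0%) than in replicate 1 (9.71%) or replicate 2 (9.89%). A smaller count per bin also gives a wider spread.

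**Figure D1:**
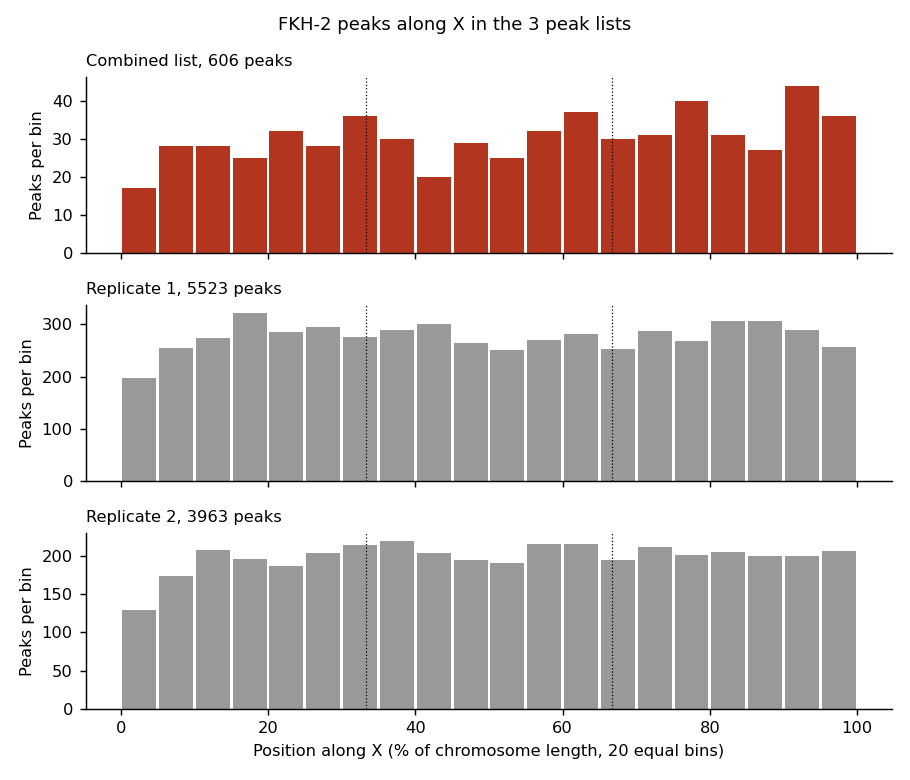
Number of FKH-2 peaks in 20 equal bins along X in the combined list (top), replicate 1 (middle) and replicate 2 (bottom). The x axis is position in percent of chromosome length, the y axis is peaks per bin, and dotted lines bound the central part. All 3 lists are lowest at the left end, and the combined list has its highest bin, with 44 peaks, near the right end.

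Each chromosome was divided into left, central and right parts of equal length. The central part of X held 192 combined peaks (31.7%, interval 28.0 to 35.6), against 1046 of 2772 (37.7%, 35.9 to 39.6) in the central part of the autosomes. Over all combined peaks the central share was 36.6%. The difference was -6.05 percentage points (interval -10.07 to -1.84; Fisher exact test, adjusted p = 0.0118). The share on X was below that of every single autosome, which ran from 35.1% to 39.4%. The right part of X held 229 peaks (37.8%) and the left part 185 (30.5%). On the autosomes the right part held 31.0% and the left part 31.2%. The 303 X peaks overlapped by both replicates had nearly the same split, with 30.7% left, 31.7% central and 37.6% right. In the replicate lists the central part of X held 33.3% of replicate 1 and 34.8% of replicate 2 peaks, against 34.4% and 36.9% on the autosomes. With combined peaks of q up to 0.001 only, the difference was -4.59 points and did not pass the Fisher exact test (adjusted p = 0.466).

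X peaks were wider. Their median width was 178.5 bp, against 140 bp on the autosomes, and widths ran from 1 to 9122 bp on X and from 1 to 2524 bp on the autosomes. On X, 363 peaks (59.9%, interval 55.9 to 63.8) were wider than 146 bp, the median of all combined peaks, against 1325 autosomal peaks (47.8%, 45.9 to 49.7). By construction this share was 50.0% over all combined peaks. The difference of 12.1 points (7.73 to 16.4) passed the test (Fisher exact test, adjusted p = 3.46e-07). It lay between 10.8 and 19.3 points in the 7 alternatives run for it and passed in each. Each alternative took the median of the peaks it kept, so the limit was not always 146 bp. Chromosome I was wider still, with a median of 250.5 bp, while the medians of II to V were 129 to 140 bp.

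In quartiles of all combined peaks by width, X had 17.2% of its peaks in the narrowest and 33.7% in the widest, against 26.9% and 23.1% on the autosomes. The 25th, 75th and 90th percentiles of width were 91, 265.5 and 381 bp on X, against 58, 200 and 332 bp on the autosomes. Widths over 500 bp were found at 28 X peaks (4.62%) and 74 autosomal peaks (2.67%), a split that was not tested. Both replicates overlapped 24 of these 28 X peaks. Peaks at most 20 bp wide numbered 57 on X (9.41%, interval 7.20 to 12.01) and 341 on the autosomes (12.3%), against 11.8% of all combined peaks. Their difference of -2.90 points missed the threshold (Fisher exact test, adjusted p = 0.0569). II to V had 11.3% to 14.3% of such peaks and I had 3.79%. Without chromosome I it was -3.32 points and passed (Fisher exact test, adjusted p = 0.0260), and without V it was -3.27 points and passed (adjusted p = 0.0353).

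A pair of neighbouring peaks was far wider than any other X peak. X:3737607-3746728 was 9122 bp wide with q = 8.58e-04, and X:3747976-3752149 was 4174 bp wide with q = 1.90e-11. The next widest X peaks were X:11605372-11606575 (1204 bp), X:14525383-14526367 (985 bp) and X:8035960-8036936 (977 bp). Together the pair held 10.1% of the 132081 bases in X peaks. Without it, the mean width on X was 197 bp in place of 218 bp, against 163 bp on the autosomes. Neither replicate had a peak at these 2 sites. The nearest peak to the right-hand one was 2844 bp away in replicate 1 and 9526 bp away in replicate 2. For the left-hand one these distances were 8265 and 14947 bp. The pair lay in a stretch of 32460 bp, X:3722533-3754992, that held no replicate peak and no other combined peak. The transgene of the strain holds fkh-2 sequence. Whether the pair lies in sequence that the transgene repeats was not tested.

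The q values of X peaks ran from 3.37e-20 to 0.00999 with a median of 0.00430, against a median of 0.00529 on the autosomes. On X, 316 peaks (52.1%, interval 48.1 to 56.2) had a q at or below the median of all combined peaks, against 1373 on the autosomes (49.5%; 46.9% to 52.7% on II to V and 53.0% on I). This share was 50.0% over all combined peaks. The difference of 2.61 points (-1.78 to 6.98) did not pass the test (Fisher exact test, adjusted p = 0.262). At the strong end, 50 X peaks (8.25%) and 157 autosomal peaks (5.66%) had a q below 1e-05, a split that was not tested. Width and q were related on X, with a Spearman's rho of -0.715 over 606 peaks, and on the autosomes, with -0.672 over 2772. Both values of a peak come from the same call, so this is a description of the list.

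**Figure D2:**
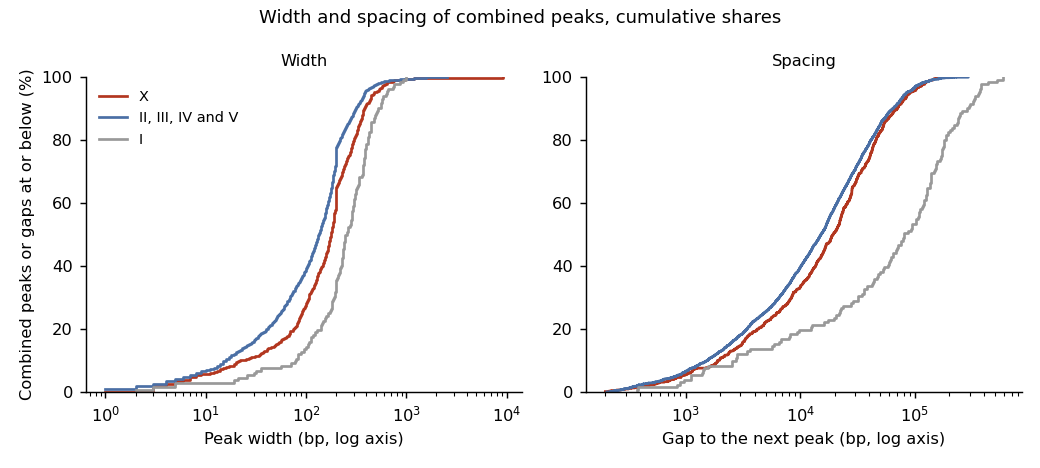
Cumulative share of combined peaks by width (left) and of gaps between neighbouring combined peaks (right), on log axes in bp, for X, for II to V together and for I. The X curve lies to the right of the II to V curve at most widths and gaps, with medians of 178.5 bp and 19303 bp on X, and the I curve lies further right.

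Neighbouring combined peaks on X were a median of 19303 bp apart, from the end of one to the start of the next, against 16098 bp on the autosomes. Gaps on X ran from 200 to 205872 bp. Of 605 X gaps, 278 (45.95%, interval 41.9 to 50.0) were below the median of all gaps, against 1408 of 2767 (50.9%) on the autosomes and 50.0% over all. The difference was -4.94 points (-9.29 to -0.54; Fisher exact test, adjusted p = 0.0442). II to V had 49.6% to 54.7% of their gaps below that median, and the sparse chromosome I had 22.1%. X likewise lay between I and II to V in combined peaks per Mb (34.2 against 8.76 and 36.1 to 43.8). The gap shares were not adjusted for this density. Gaps of at most 10 kb made up 33.4% on X, against 38.7% on the autosomes, while gaps of at most 50 kb made up 82.6% and 82.8%. The call was lost without II, III or IV, with differences of -4.71, -3.70 and -3.72 points (adjusted p = 0.0513, 0.131 and 0.141, Fisher exact tests). It was also lost with peaks over 20 bp wide (-4.03 points, Fisher exact test, adjusted p = 0.122) or with q up to 0.001 (-5.64 points, adjusted p = 0.409).

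The 3 longest gaps on X were X:17185018-17390889 (205872 bp), X:14334660-14495351 (160692 bp) and X:7866910-8019424 (152515 bp). Replicate peaks were present in all of them. The longest held 47 replicate 1 and 33 replicate 2 peaks, the next 39 and 32, and the shortest of them 48 and 40. The best replicate 1 ranks inside were 819, 323 and 875, and the best replicate 2 ranks were 1421, 466 and 1691. In all, 26 X gaps (4.30%) were longer than 100 kb, against 146 autosomal gaps (5.28%).

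Clusters were defined as 2 or more combined peaks chained by gaps of at most 2 kb. X had 51 of them with 115 peaks, of which 42 were pairs and 9 held 3 to 5 peaks. Clustered peaks made up 19.0% of X peaks (interval 15.9 to 22.3), against 635 peaks or 22.9% on the autosomes and 22.2% of all combined peaks. The difference was -3.93 points (-7.26 to -0.28; Fisher exact test, adjusted p = 0.0442). It missed the threshold with a chaining gap of 1 kb (-1.82 points, Fisher exact test, adjusted p = 0.256) or 5 kb (-4.15 points, adjusted p = 0.0689). It also missed it without III (-3.11 points, Fisher exact test, adjusted p = 0.131) or IV (-3.00 points, adjusted p = 0.141), with peaks over 20 bp wide (-3.51 points) and with q up to 0.001 (-4.98 points). The share on X was below that of II to V (19.7% to 25.9%) and above that of I (15.9%). The density of combined peaks per Mb also placed X below II to V and above I. The cluster shares were not adjusted for it.

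The cluster with the most peaks, X:11479544-11482945, had 5 peaks of 3 to 382 bp with a lowest q of 1.51e-04. All 5 overlapped replicate 1 and 4 overlapped both replicates, with best ranks of 543 and 715. The cluster X:6740605-6744218 had 4 peaks with a lowest q of 6.18e-06, of which 3 overlapped both replicates, and its best ranks were 231 and 737. In these 2 clusters the best ranks of both replicates lay among the tied top scores. The cluster X:16794634-16801303 had 4 peaks over 6670 bp, of which 3 overlapped both replicates. Its best rank was 10425 in replicate 1 and 138 in replicate 2, and only the replicate 2 rank lay among the tied top scores. The cluster X:16929406-16931632 had 3 peaks of 451 to 620 bp, and all 3 overlapped both replicates. Its lowest q was 1.01e-09 and its best ranks were 57 and 250. The cluster X:11472025-11475343 had 3 peaks with best ranks of 66 and 522, and it lay just left of the cluster of 5. Clustered X peaks had a median width of 200 bp and single X peaks 169 bp. Both replicates overlapped 57 of 115 clustered (49.6%) and 246 of 491 single X peaks (50.1%), against 42.5% of clustered and 35.0% of single autosomal peaks. Neither replicate overlapped 11.3% of clustered and 7.54% of single X peaks, against 8.66% and 13.1% on the autosomes. These shares were not tested.

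Replicate overlap was counted from 1 shared bp. Both replicates overlapped 303 X peaks (50.0%, interval 45.9 to 54.1), against 1017 autosomal peaks (36.7%, 34.9 to 38.5) and 39.1% of all combined peaks. The difference was 13.3 points (8.95 to 17.7; Fisher exact test, adjusted p = 2.03e-08). Its size depended on the matching. With at least 50% of the combined peak covered it was 8.71 points (38.9% on X against 30.2%), and with the 3378 highest-ranked peaks of each replicate 6.58 points (16.5% against 9.92%). Both of these passed (Fisher exact test, adjusted p = 2.07e-04 and 2.83e-05). Highest-ranked here means the lowest numbers in the peak names, which the deposited scores do not follow throughout. Replicate 2 overlapped 394 X peaks (65.0%), against 1482 autosomal peaks (53.5%) and 55.5% of all, a difference of 11.6 points (7.25 to 15.7; Fisher exact test, adjusted p = 6.63e-07). Replicate 1 overlapped 465 X peaks (76.7%), against 1973 autosomal peaks (71.2%) and 72.2% of all, a difference of 5.56 points (1.66 to 9.18; Fisher exact test, adjusted p = 0.0118). The replicate lists were long and of unequal length, with 30000 peaks in replicate 1 and 20799 in replicate 2. Their peaks also differed in width, with medians on X of 400 and 260 bp. They came from another peak caller than the combined list (spp via IDR against PeakSeq). At overlapped X peaks the median best rank was 2453 in replicate 1 and 3097.5 in replicate 2. The differences of the replicates were not tested against each other. With the 3378 highest-ranked peaks they were 8.64 points for replicate 2 and 9.32 points for replicate 1. Neither replicate overlapped 50 X peaks (8.25%), against 334 autosomal peaks (12.05%) and 11.4% of all, a difference of -3.80 points (-6.11 to -1.08; Fisher exact test, adjusted p = 0.0119). It was -11.4 points with the 3378 highest-ranked peaks of each replicate.

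**Figure D3:**
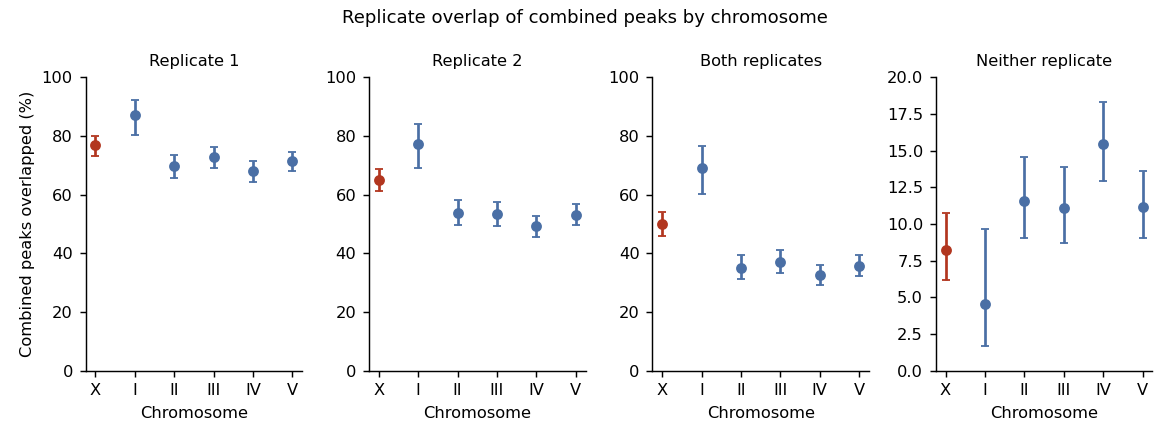
Share of combined peaks (%) overlapped by replicate 1, replicate 2, both and neither, for X (red) and each autosome (blue), with 95% Clopper-Pearson intervals. The neither panel has a shorter axis. X lies above II to V for both replicates (50.0% against 32.6% to 37.1%), and I lies higher still at 68.9%.

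For all 4 overlap measures X lay outside the range of II to V and between that range and chromosome I. For both replicates, II to V ran from 32.6% to 37.1% and I had 68.9%. The replicate lists themselves covered slightly more of X. Replicate 1 peaks covered 11.97% of X, against 11.4% of the autosomes (10.2% to 12.4% singly). Replicate 2 peaks covered 5.82% of X, against 5.29% of the autosomes (4.97% to 5.56% singly). Their part in the overlap of combined peaks was not tested. Without IV the replicate 1 difference was 4.42 points and the neither difference -2.59 points, and both missed the threshold (Fisher exact test, adjusted p = 0.0641 and 0.112). With peaks over 20 bp wide they were 3.22 and -2.36 points and also missed it (Fisher exact test, adjusted p = 0.141 and 0.122).

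Width moved with overlap, and X peaks were wider, so the shares were also taken within quartiles of width over all combined peaks. Both replicates overlapped 26 of 104 X peaks (25%) and 17.7% of autosomal peaks in the narrowest quartile (1 to 62 bp). In the next quartile they overlapped 34.5% on X and 26.8% on the autosomes, and in the one after it (147 to 208 bp) 50.9% and 39.5%. In the widest quartile (209 bp and over) the shares were 72.5% on X and 66.7% on the autosomes. X was higher in 4 of 4 quartiles, and the intervals of X and the autosomes overlapped in each. Among peaks of 100 to 300 bp only, both replicates overlapped 50.8% of 319 X peaks, against 41.4% of 1380 autosomal peaks (Fisher exact test, adjusted p = 0.00860). In that width range the replicate 1 difference was 0.62 points (adjusted p = 0.881) and the neither difference -1.02 points (adjusted p = 0.682), so neither passed the Fisher exact test.

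Within quartiles of q, both replicates overlapped 76.9% of X and 66.6% of autosomal peaks at the lowest q. At the highest q they overlapped 31.9% (24.7 to 39.7) on X and 18.7% (15.8 to 21.8) on the autosomes. X was again higher in 4 of 4 quartiles, and the intervals did not overlap in the 2 quartiles of higher q. With peaks of q up to 0.001 only, the difference for both replicates was 11.0 points (81.2% on X against 70.2%) and missed the threshold (Fisher exact test, adjusted p = 0.0634). For replicate 2 it was 9.44 points and missed it too (Fisher exact test, adjusted p = 0.0742). There the replicate 1 difference turned to -0.67 points (Fisher exact test, adjusted p = 0.958) and the neither difference to 2.20 points (adjusted p = 0.399).

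**Figure D4:**
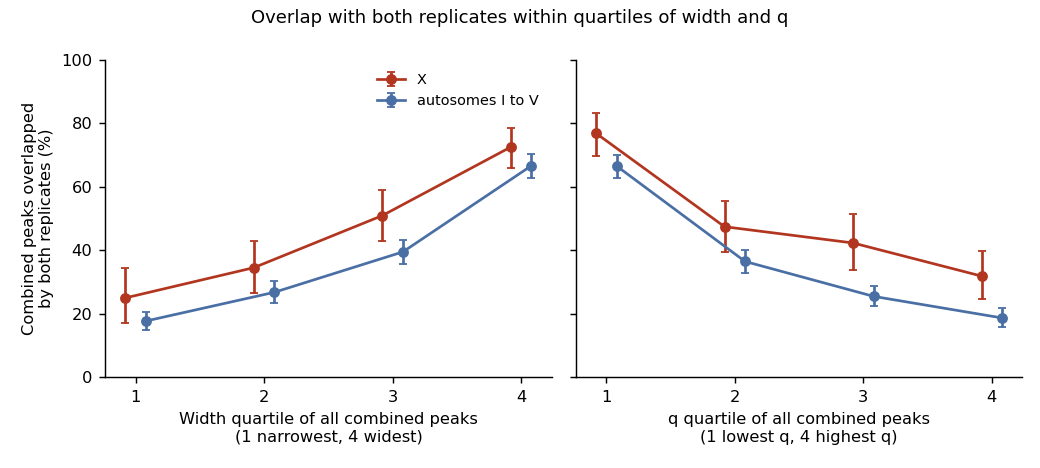
Share of combined peaks (%) overlapped by both replicates within quartiles of width (left) and q (right), taken over all combined peaks, for X (red) and the autosomes I to V (blue), with 95% Clopper-Pearson intervals. X is higher in each of the 8 quartiles, for example 76.9% against 66.6% in the lowest q quartile.

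Of the other X peaks, 162 (26.7%) were overlapped by replicate 1 alone and 91 (15.0%) by replicate 2 alone, against 34.5% and 16.8% on the autosomes. Peaks seen in both replicates were the widest and had the lowest q, with medians of 204 bp and 0.00260 on X. Those seen by replicate 1 alone had medians of 136.5 bp and 0.00561, and those by replicate 2 alone 123 bp and 0.00571. Peaks seen by neither had medians of 104 bp and 0.00648. The autosomal peaks seen by neither were narrower, at a median of 55.5 bp. The 50 X peaks seen by neither lay a median of 568 bp from the nearest replicate peak, against 570 bp for the 334 such autosomal peaks, and 19 of the X peaks lay over 1 kb from any. At the 303 X peaks seen in both, the midpoints of the best-ranked overlapping peaks of each replicate were a median of 75 bp apart, against 80 bp on the autosomes. They were within 50 bp at 98 of the X peaks (32.3%), against 32.9% on the autosomes.

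The 10 X peaks with the lowest q were all overlapped by both replicates. They lay between X:2996794-2997437 and X:16056154-16056757, were 525 to 1204 bp wide and had q from 3.37e-20 to 1.44e-11. Ranks are the numbers in the peak names, and the best is the lowest number among overlapping replicate peaks. Up to rank 611 in replicate 1 and 789 in replicate 2 the scores are tied at the top value of the list, so order within that range rests on peak names only. Beyond that range the deposited score did not fall throughout as rank number rose. In replicate 1, for example, rank 662 scored 2.64 and rank 755 scored 2.70. In replicate 2, rank 847 scored 2.75 and rank 1794 scored 3.08. The peak X:11093796-11094366 had the lowest q on X, ranks of 10 and 49, and midpoints 21 bp apart. The peak X:9465593-9466117 (q = 3.43e-15) had ranks of 21 and 38, and X:2996794-2997437 (q = 2.74e-14) had ranks of 20 and 89. The peak X:4208646-4209503 (q = 6.22e-14) had ranks of 39 and 34, with midpoints 23 bp apart. The peaks X:14525383-14526367 (q = 3.54e-18) and X:8035960-8036936 (q = 5.10e-17) had midpoints 12 and 174 bp apart, with ranks of 30 and 66 for the one and 180 and 44 for the other. In each of these, both replicates placed a peak among their tied highest scores. The same held for X:16056154-16056757 (q = 4.90e-12, ranks 44 and 372), X:6296200-6296931 (q = 1.34e-11, ranks 23 and 29) and X:12362847-12363387 (q = 1.44e-11, ranks 53 and 227).

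The exception among the 10 was X:11605372-11606575 (q = 1.14e-16). Its best replicate 1 peak ranked 96 with the highest score of 3.09, and its best replicate 2 peak ranked 9223 with a score of 2.16, against 3.20 for the highest of that list. The midpoints of these peaks were 545 bp apart, the largest distance among X peaks. This peak is wide enough to hold separate replicate peaks.

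Of the 20 X peaks with the lowest q, 18 were overlapped by both replicates and 2 by neither. One of these was the 4174 bp peak described above. The other was the first peak of the chromosome, X:293240-293623 (384 bp, q = 4.18e-09), whose nearest replicate peaks were 4252 bp away in replicate 1 and 7648 bp away in replicate 2. Among the 100 X peaks with the lowest q, all with q up to 3.01e-04, both replicates overlapped 83.

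**Figure D5:**
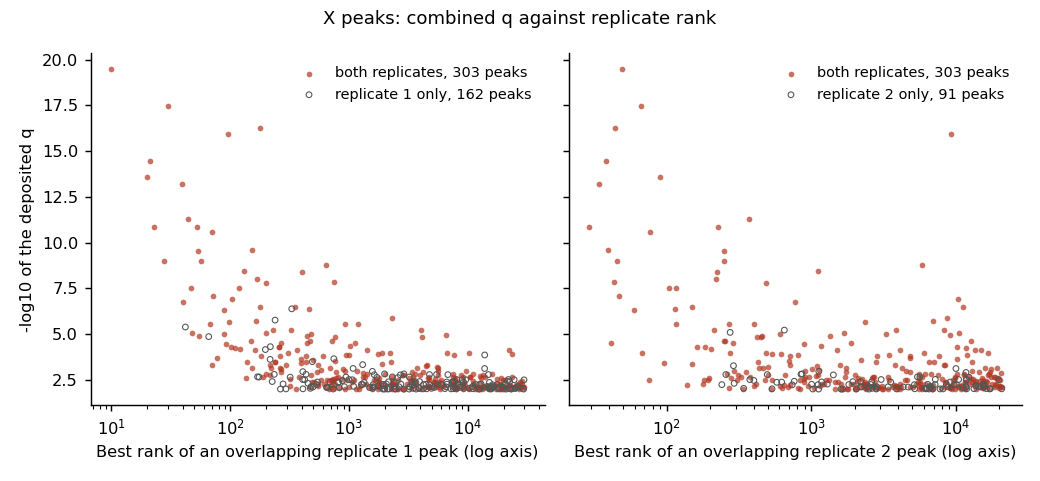
Each point is an X peak, with -log10 of its deposited q on the y axis and the best rank of an overlapping peak in replicate 1 (left) or replicate 2 (right) on a log x axis. Filled points were overlapped by both replicates (303 peaks) and open points by that replicate alone (162 and 91 peaks). Of the 10 peaks with the lowest q, 9 lie among the tied top scores of both replicates, and X:11605372-11606575 stands apart at rank 9223 in replicate 2.

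Across X peaks, q and best rank had a Spearman's rho of 0.545 in replicate 1 (465 peaks) and 0.326 in replicate 2 (394 peaks), against 0.435 and 0.325 on the autosomes. The best ranks of the replicates had a rho of 0.242 over the 303 X peaks seen in both, against 0.217 over 1017 autosomal peaks. These are correlations across peaks of the same libraries, given as description. X held 145 of its 5523 replicate 1 peaks (2.63%) at the tied highest score, against 1.82% of autosomal peaks, and 181 of its 3963 replicate 2 peaks (4.57%), against 3.47%.

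Seen from the replicate lists, the recovery of X peaks in the combined list fell steeply with rank. Scores are tied up to rank 611 in replicate 1 and 789 in replicate 2, so the cut at rank 300 follows peak names only. The later cuts also follow the name numbers, and the scores do not fall throughout along them. Of X peaks in ranks 1 to 300, 74 of 77 in replicate 1 (96.1%, interval 89.0 to 99.2) and 51 of 61 in replicate 2 (83.6%, 71.9 to 91.8) overlapped a combined peak. The autosomal shares were 92.6% and 77.2%, or 96.95% and 82.8% without I. In ranks 301 to 1000 the X shares were 58.6% and 34.9%, against 57.4% and 35.5% on the autosomes, or 63.6% and 41.0% without I. In ranks 1001 to 3378 they were 19.6% and 19.2%, against 23.4% and 17.7%, or 26.5% and 20.1% without I. Below that rank they were 5.16% and 6.08%, against 5.96% and 5.96%, or 6.97% and 6.96% without I. Set against II to V, X was lower in all 4 bands of replicate 1 and in 3 of 4 of replicate 2, and these differences were not tested.

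The replicates were also set against each other on X without the combined list. On X, 1121 of 5523 replicate 1 peaks (20.3%, interval 19.2 to 21.4) overlapped a replicate 2 peak, against 17.8% to 19.4% on the autosomes. In the other direction, 1053 of 3963 replicate 2 peaks (26.6%, 25.2 to 28.0) overlapped a replicate 1 peak, against 24.7% to 27.2%. In ranks 1 to 300 the shares on X were 80.5% (62 of 77) for replicate 1 and 83.6% (51 of 61) for replicate 2, against 77.0% and 69.8% on the autosomes. These shares were not tested against each other.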

How the data were processed

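Peaks were compared as intervals. The authors deposited 1 peak list for each ChIP replicate and 1 combined list. They held 30000 peaks for replicate 1, 20799 for replicate 2 and 3378 in the combined list. Per the file headers all use WormBase WS220, and per their source columns the replicate lists come from spp via IDR and the combined list from PeakSeq. The combined list gives, as deposited, a q-value per peak, and the replicate lists a deposited score whose scale is not named. Whether the combined list was called on pooled reads, the aligner, the controls and the versions are not given in the sources used here. Input samples were not used here. Depth is unknown.

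X peaks were compared with autosomal peaks by 10 two-sided Fisher exact tests with Benjamini-Hochberg adjustment, and each alternative setting was adjusted separately. Chromosome length was the largest peak end in any list, and mitochondrial peaks of the replicate lists were left out. Rank is the number in a replicate peak's name, and the highest-ranked peaks are those with the lowest numbers. Beyond the tied top scores, the deposited score does not always fall as this number rises. The regions named were the 10 X peaks with the lowest q, the 5 widest X peaks, the 5 clusters with the most peaks (ties by lowest q), the 3 longest gaps, the first and last X peak, and peaks among the 20 with the lowest q that no replicate overlapped. The peaks, lists and tests were chosen with earlier results of these data known. Alternatives were stricter matching, shorter lists, narrower ranges of width or q, leaving out each replicate or autosome, and other limits for clusters, spacing and centre. The overlap and cluster calculations were tested on simulated lists. Replicates share a label number only, and the labels do not say whether they came from separate cultures. Python 3.11.15, numpy 2.4.6, pandas 2.3.3, scipy 1.17.1, statsmodels 0.14.6 and matplotlib 3.10.9 were used.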

Additional observations from a re-analysis of the deposited data

How the results depend on the processing

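Leaving out II, III, IV or V and the use of the 3378 highest-ranked peaks of each replicate were chosen after seeing the data. All values are X minus autosomes in percentage points, with adjusted p from the Fisher exact test. The width, q and gap splits took the median of the peaks or gaps kept in each setting. The width split passed in all 7 alternatives run for it, and the q split did not pass in any of its 7 (adjusted p 0.154 to 0.547). Overlap with both replicates kept its direction in the 12 settings that keep both, between 6.58 and 14.9. With replicate 1 or replicate 2 left out, it is by construction the overlap with the other replicate (11.6 and 5.56), and neither is its complement (-11.6 and -5.56), so these settings add no check. With q up to 0.001, 7 results changed their call or direction: replicate 1 turned to -0.67 (0.958) and neither to 2.20 (0.399), while replicate 2 was 9.44 (0.0742), both replicates 11.0 (0.0634), gaps -5.64 (0.409), clusters -4.98 (0.281) and the central part -4.59 (0.466). With peaks over 20 bp wide, replicate 1 was 3.22 (0.141), neither -2.36 (0.122), gaps -4.03 (0.122) and clusters -3.51 (0.122). With peaks of 100 to 300 bp, replicate 1 was 0.62 (0.881) and neither -1.02 (0.682). Clusters were -1.82 with gaps up to 1 kb and -4.15 with gaps up to 5 kb. Without I the share of peaks at most 20 bp wide was -3.32 (0.0260), and without V it was -3.27 (0.0353), both past the threshold. Gaps lost their call without II (-4.71), III (-3.70) or IV (-3.72), and clusters without III (-3.11) or IV (-3.00). Without IV, replicate 1 was 4.42 (0.0641) and neither -2.59 (0.112). Fewer peaks enter most of these settings, and beyond that the cause was not tested. No paired analysis was possible because the combined list has no replicates and the inputs were not analysed here. Since depth is unknown, list lengths and widths cannot be set against it.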

Other observations

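The observations below were chosen after the values were seen and carry no test. With a chaining gap of 5 kb in place of 2 kb, neighbouring clusters on X joined. The region X:11464319-11487868 then held 12 combined peaks over 23550 bp, 8 of them overlapped by both replicates, with a lowest q of 1.36e-05. The region X:6735672-6744218 held 7 peaks over 8547 bp, 5 of them overlapped by both replicates, with a lowest q of 6.18e-06. The region X:4137315-4147932 held 6 peaks over 10618 bp, 3 of them overlapped by both.

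The shortest gap between combined peaks was 200 bp on X and 206 bp on the autosomes, and no X peaks touched. Exactly 200 bp was also a frequent width, found at 36 X peaks (5.94%) and 120 autosomal peaks (4.33%). The 200 bp gap and width were not traced to a step of the peak calling, whose settings no source used here gives.

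Among X peaks that neither replicate overlapped, the lowest q after those named belonged to X:15535062-15535501 (440 bp, q = 2.70e-06). Its nearest replicate peaks were 2859 bp away in replicate 1 and 593 bp away in replicate 2.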
